A study of Drosophila melanogaster with 4 samples.

Results

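Chromosome 4 of Drosophila melanogaster carried 129 Smc3 clusters in the list of ChIP replicate 1. The list of ChIP replicate 2 had 135 and the authors' list for the replicate set had 104. These were all the clusters placed on chromosome 4, of 7858, 6505 and 15781 enriched clusters in the 3 lists. A cluster is a region that the authors called as enriched in chromatin immunoprecipitation and sequencing (ChIP-seq) with an antibody against Smc3. The chromatin came from larvae of instar 3 of the wild-type Oregon-R flies (the Oregon-R-modENCODE stock), with no transgene, mutation or treatment in the labels. Larval tissues were homogenised and fixed with formaldehyde, so each list averages over the cell types of the larva. The series held 2 ChIP and 2 Input samples, of which only the ChIP samples had lists analysed here. The description of ChIP replicate 2 names input DNA, while its title and source name give ChIP, and the title was followed. Whether the replicates were separate collections is not in the labels, and their spread may be technical. With 2 samples of 1 group, no difference could be tested over samples. Every value below is therefore a description, and clusters, windows and bases of 1 chromosome are not replicates.

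Smc3 forms part of the core of cohesin, a complex shaped like a ring that encircles DNA, holds sister chromatids together until cell division and takes part in forming chromatin loops. In flies the gene is also known as Cap, and cohesin is loaded onto chromosomes by Nipped-B. Chromosome 4 is the smallest autosome of the fly. Its sequenced arm has genes but also much repeated DNA, and is known for carrying the heterochromatin protein HP1a and a protein specific to this chromosome, POF, along its length. In the assembly the low-coordinate end lies towards the centromere and the high-coordinate end towards the telomere. Coordinates are those of FlyBase release 5, in which chromosome 4 is 1351857 bp long. The genes at the positions named here were not analysed here.

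Smc3 clusters covered most of chromosome 4, and a minority of wide clusters held most of the covered bases. Gaps were short in the main. A few stretches, among them the last full window at the high-coordinate end, were sparse in both replicates. Clusters covered 941 kb in replicate 1, or 69.6% of the bases, and 1101 kb in replicate 2, or 81.4%. The replicate-set list covered 1210 kb, or 89.5%. Over all sequences the order of the replicates was the reverse, with 15.7% covered in replicate 1 and 14.7% in replicate 2. Chromosome 4 made up 0.968% of the sequence with clusters. Of all bases inside clusters it held 4.29% in replicate 1 and 5.34% in replicate 2, and 3.03% for the replicate set. By number its clusters were 1.64%, 2.08% and 0.659% of the 3 lists, so its share of covered bases exceeded its share of clusters in each list.

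**Figure D1:**
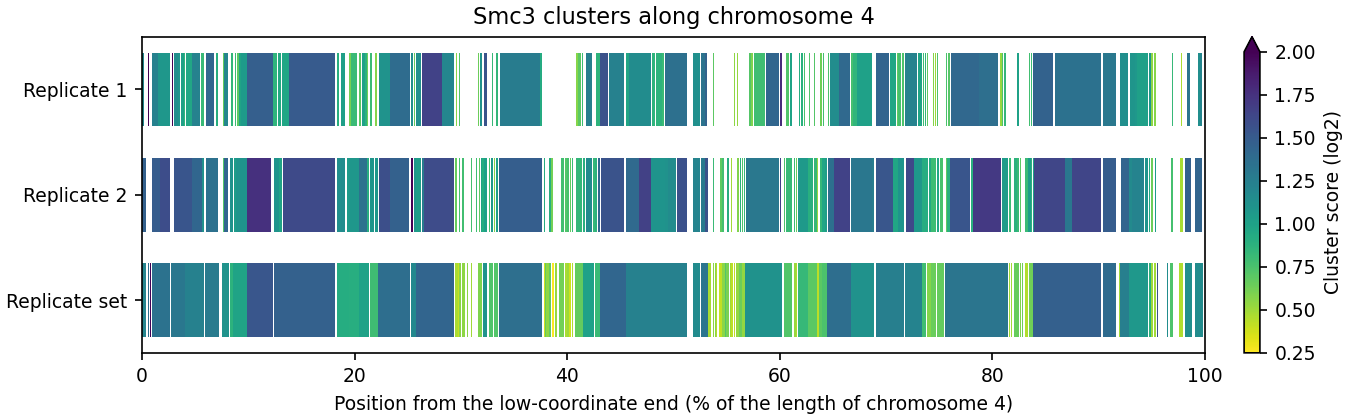
Smc3 clusters of each list along chromosome 4, with position given as percent of the chromosome's length from the low-coordinate end and the colour giving the authors' score (log2, values above 2 in the darkest colour). Clusters cover 69.6% of the chromosome in replicate 1 and 81.4% in replicate 2, with 89.5% for the replicate set, and the sparse stretches lie at like positions in all 3 lists.

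Cover was followed in fixed windows of 50 kb, of which 27 were full. In replicate 1 it ran from 16.6% to 96.4%, with a median of 77.4%. In replicate 2 it ran from 42.8% to 99.7%, with a median of 88.0%, and for the replicate set from 60.3% to 100%, with a median of 94.8%. At least 50% of the bases were covered in both replicates in 22 of the 27 windows. Over all full windows of the series, 7.17% reached this in both replicates. Taken singly, 22 windows reached it in replicate 1 (7.17% of all windows) and 24 in replicate 2 (9.47% of all windows). Of the 5 below it in replicate 1 and the 3 in replicate 2, those 3 were below it in both replicates. All 27 windows reached 50% in the replicate-set list, against 12.8% of the windows of all sequences.

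The most covered windows were the ones from 1150001 to 1200000, from 450001 to 500000 and from 200001 to 250000. The window from 1150001 to 1200000 was covered to 96.4% in replicate 1 and 99.7% in replicate 2. For the window from 450001 to 500000 the values were 94.4% and 98.0%. Between 200001 and 250000 they were 94.2% and 94.4%, the closest match of the 3.

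Between such windows lay sparse ones. The least covered window by the mean of the replicates was the one from 500001 to 550000, with 16.6% in replicate 1 and 48.7% in replicate 2, right beside the well-covered window from 450001 to 500000. The next were the window from 1300001 to 1350000, with 24.3% and 42.8%, and the window from 400001 to 450000, with 24.5% and 43.6%. The window from 700001 to 750000 had 37.8% and 55.0%, and the window from 1100001 to 1150000 had 43.6% and 74.9%. These 5 windows were taken for their low mean cover and make up 18.5% of the chromosome. They held 51.6% of the bases outside the clusters of both replicates. Elsewhere no full window fell below 53.9% in replicate 1 or 66.0% in replicate 2. In replicate 2 the window from 1100001 to 1150000, at 74.9%, was itself above that 66.0%. The replicates ranked the windows alike (Spearman correlation 0.848 and Pearson correlation 0.892 over 27 neighbouring windows, which share libraries and sequence).

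**Figure D2:**
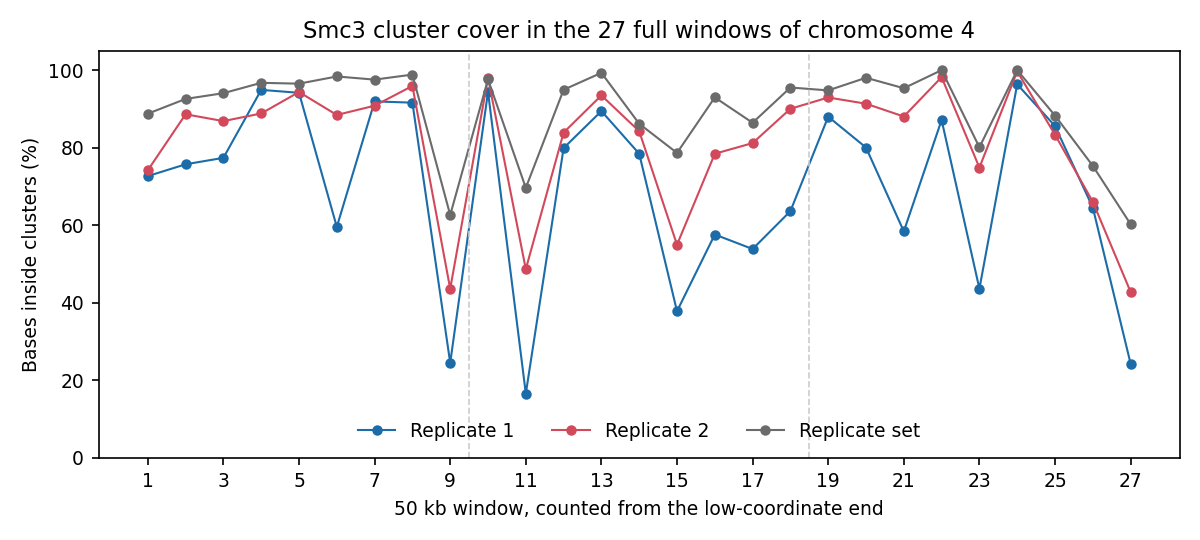
Percent of bases inside Smc3 clusters in each of the 27 full 50 kb windows of chromosome 4, for replicate 1, replicate 2 and the replicate-set list; dashed lines divide the chromosome into 3 parts of 450 kb. Both replicates dip at the windows starting at 400001, 500001, 700001, 1100001 and 1300001, and replicate 2 lies above replicate 1 in 24 of the 27 windows.

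From the low-coordinate to the high-coordinate end there was no steady change, but cover fell over the last 3 full windows. The first window was covered to 72.7% in replicate 1 and 74.2% in replicate 2. Between 1200001 and 1250000, cover was 85.6% and 83.3%. Between 1250001 and 1300000 it had fallen to 64.6% and 66.0%. The last full window had 24.3% and 42.8%. The remaining 1857 bp held no cluster in any list. The first cluster began at base 71 in replicate 1 and at base 40 in replicate 2, and at base 32 for the replicate set. After the last cluster 3565, 4188 and 2771 bases were left.

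Split into 3 parts of 450 kb, the low-coordinate part was covered to 75.8% in replicate 1 and 83.5% in replicate 2. The middle part was covered to 63.5% and 79.2%, and the high-coordinate part to 69.8% and 81.9%. The order was thus the same in both replicates, with the middle part lowest. In the replicate-set list the high-coordinate part was lowest, at 88.0%, against 91.8% and 89.0% for the low and middle parts. The low part exceeded the high part by 6.05 percentage points in replicate 1 and 1.60 in replicate 2 (mean 3.83 ± 3.15, SD, n = 2). With only the first and last 5 windows, the difference was 20.1 percentage points in replicate 1 and 13.2 in replicate 2 (mean 16.7 ± 4.85, SD, n = 2). The difference between parts of 450 kb rested on the last full window, since without that window, a setting chosen after seeing the data, the mean was -1.46 percentage points (0.367 in replicate 1 and -3.29 in replicate 2). Spearman's correlation of cover with window number was -0.196 in replicate 1 and -0.112 in replicate 2.

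Most clusters were short, and a minority of wide ones held most of the covered bases. The narrowest cluster was 1308 bp in replicate 1 and 1335 bp in replicate 2, and the widest were 59.3 kb and 66.1 kb. Median widths were 2546 bp and 3340 bp (mean 2943 ± 561, SD, n = 2), against 2014 bp and 1811 bp over all clusters of each list. In replicate 1, 27 of the 129 clusters (20.9%) were at least 10 kb wide, against 2.77% of all its clusters, and they held 66.6% of the covered bases. In replicate 2, 32 of the 135 (23.7%) were this wide, against 4.98% of all its clusters, and held 66.9% of the covered bases. The replicate-set list had 29 of 104 (27.9%), against 2.57% of the whole list. At the other end, the 70 clusters under 3 kb of replicate 1 held 14.0% of its covered bases, and the 60 of replicate 2 held 11.1%. Wide clusters lay in every part of the chromosome, with 8, 9 and 10 in the low, middle and high parts in replicate 1 and 12, 10 and 10 in replicate 2.

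The widest domains of each replicate lay largely inside clusters of the other. The widest of replicate 1, from 1160451 to 1219750, scored 1.35, and 99.7% of its bases lay inside 3 clusters of replicate 2. Its second widest, from 187430 to 245323 with a score of 1.50, lay wholly inside the widest cluster of replicate 2, from 179362 to 245435 with a score of 1.61. The domain from 455144 to 505789 in replicate 1 (50.6 kb, score 1.27) lay wholly inside the replicate 2 cluster from 454246 to 508305 (54.1 kb, score 1.48). These right edges, 505789 and 508305, lay inside the least covered window, near its left end. In other places 1 list had a continuous domain and the other had pieces. The replicate 2 cluster from 767451 to 810596 (43.1 kb, score 1.30) touched 4 clusters of replicate 1, which covered 84.5% of it.

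Gaps between neighbouring clusters were short in the main. The median gap was 1500.5 bp in replicate 1, 945 bp in replicate 2 and 781 bp for the replicate set, against medians of 6505 bp and 7384.5 bp over all sequences in the replicates. Of the 128 gaps of replicate 1, 32 were at most 500 bp long, and of the 134 gaps of replicate 2, 47 were. A few long gaps made up much of the uncovered sequence. The 21 gaps of at least 5 kb in replicate 1 held 61.5% of its uncovered bases, and the 13 such gaps in replicate 2 held 42.2%. By part, replicate 1 had 4 of these long gaps in the low part, 9 in the middle part and 8 in the high part, and replicate 2 had 3, 6 and 4.

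The widest gap of replicate 1 ran for 42.9 kb, from 508405 to 551286. In replicate 2, 37.4% of it was covered and 8 clusters touched it. For the replicate set 62.0% was covered and 14 clusters touched it. The mean score over these bases was 0.78 in replicate 2 and 0.52 for the replicate set, below the 1.35 and 1.17 over all covered bases of the chromosome in the same lists. The widest gap of replicate 2 ran from 1289849 to 1308804 (18.956 kb), near the high-coordinate end, and held no cluster of replicate 1. It was also the longest stretch outside the clusters of both replicates. Next in length among such stretches were those from 522086 to 532748 (10.7 kb), from 1311184 to 1320431 (9.25 kb), from 409340 to 418225 (8.89 kb) and from 727637 to 735034 (7.40 kb), each in or at the edge of one of the sparse windows.

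Scores were taken as deposited, as log2 values within each list. On chromosome 4 they ran from 0.47 to 2.99 in replicate 1 with a median of 0.90, and from 0.47 to 2.15 in replicate 2 with a median of 1.03. In the replicate-set list they ran from 0.26 to 2.11 with a median of 0.68. Medians over each whole list were 0.78, 0.78 and 0.51, so chromosome 4 lay above its list by 0.11, 0.25 and 0.17. Of the chromosome 4 clusters, 14.7% in replicate 1 and 8.15% in replicate 2 were among the 10.0% of highest score in their own list. For the replicate-set list it was 20.2%, again against 10.0%. In the replicates the shares thus lay on both sides of that value.

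Wider clusters scored higher. Spearman's correlation between width and score across the clusters of chromosome 4 was 0.677 in replicate 1, 0.758 in replicate 2 and 0.702 for the replicate set. In replicate 1 the median score was 0.77 for clusters under 3 kb, 0.97 for those from 3 kb to under 10 kb and 1.35 for those of at least 10 kb. In replicate 2 the medians were 0.82, 1.06 and 1.51. The lowest score of a cluster of at least 10 kb was 0.78 in replicate 1 and 1.06 in replicate 2. Yet the single highest scores belonged to narrow clusters in each list. In replicate 1 they were the clusters from 7549 to 8893 (2.99) and from 38272 to 39900 (2.12), neither of which overlapped a cluster of replicate 2. The highest of replicate 2 was the cluster from 342324 to 344952, with a score of 2.15. The cluster of replicate 1 covering 89.9% of it scored 1.14. A narrow region with a high score in both replicates was the one from 811485 to 813232 in replicate 1 (1.79), matched by the cluster from 811426 to 813162 in replicate 2 (1.67).

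**Figure D3:**
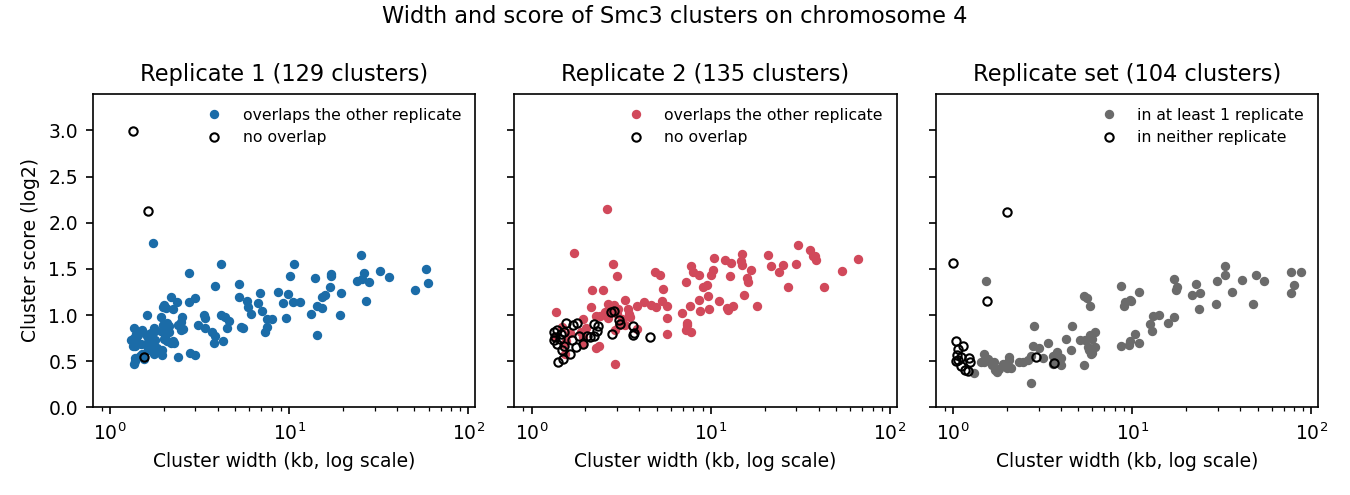
Width (kb, log scale) and score (log2) of each cluster on chromosome 4 in the 3 lists. Open circles mark clusters with no overlap in the other replicate (replicates 1 and 2) or in either replicate (replicate set): 3, 35 and 17 clusters, nearly all narrow, with the highest score of replicate 1 (2.99) and of the replicate-set list (2.11) among them.

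Along the chromosome, mean scores over covered bases followed cover more than position. In replicate 1 the windows ran from 0.84, between 250001 and 300000, to 1.48, between 200001 and 250000. In replicate 2 they ran from 0.86, between 400001 and 450000, to 1.59, again between 200001 and 250000. Spearman's correlation of a window's mean score with its cover was 0.539 in replicate 1 and 0.677 in replicate 2, and with its position -0.078 and -0.151 (27 windows each). The low-coordinate part scored above the high-coordinate part by 0.038 in replicate 1 and 0.051 in replicate 2, with means of 1.25 against 1.21 and of 1.41 against 1.36. The middle part was lowest in both, at 1.15 and 1.26.

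The contrast between the 5 sparse windows and the rest was taken within each list. The mean score over covered bases was 1.19 there and 1.21 in the other 22 windows in replicate 1, but 1.10 and 1.38 in replicate 2 and 0.85 and 1.22 for the replicate set. The sparse windows, 18.5% of the chromosome, held 20 of the 129 clusters of replicate 1. They held 38 of the 135 of replicate 2 and 44 of the 104 of the replicate-set list. Across the 238 windows of 5 kb with clusters of both replicates, Spearman's correlation between the mean scores of the replicates was 0.743. Neighbouring windows often lie inside the same cluster, which repeats its score.

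**Figure D4:**
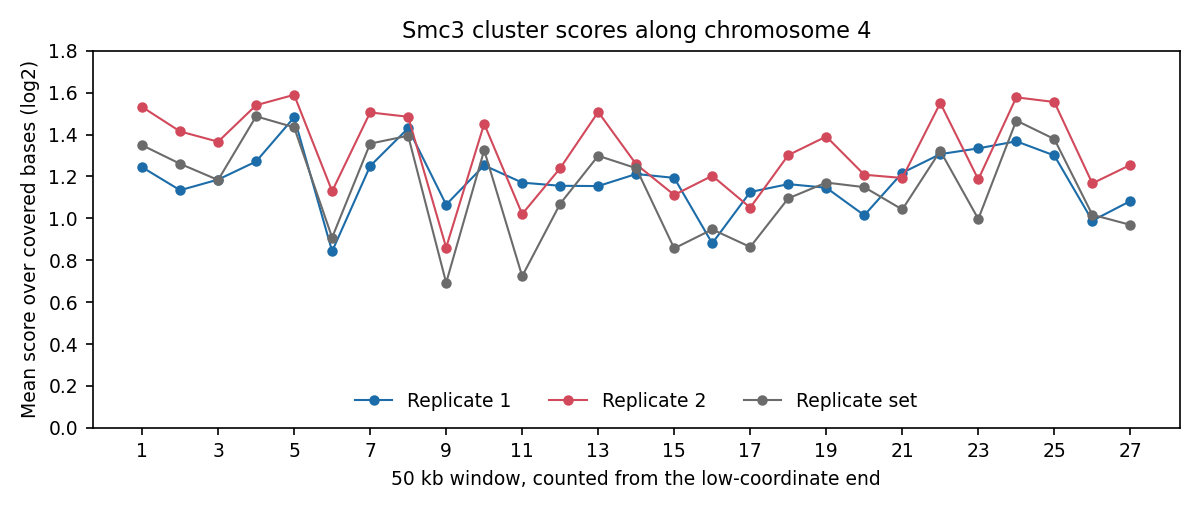
Mean score (log2) over the bases inside Smc3 clusters in each of the 27 full 50 kb windows of chromosome 4, by list. Replicates 1 and 2 are both highest in the window from 200001 to 250000 (1.48 and 1.59), and replicate 2 and the replicate-set list are lowest in the window from 400001 to 450000 (0.86 and 0.69).

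Base by base, the clusters of replicate 1 lay almost entirely inside those of replicate 2. Both replicates covered 907 kb, or 67.1% of the chromosome. Replicate 1 alone covered 34.4 kb (2.55%), replicate 2 alone 194 kb (14.4%) and neither replicate 217 kb (16.0%). Of the bases of replicate 1, 96.3% were inside clusters of replicate 2, and of the bases of replicate 2, 82.4% were inside clusters of replicate 1. Over all sequences these shares were 58.5% and 62.3%. Lists that each cover most of a chromosome must share many bases whatever their placement, and chance overlap was not tested. The bases of both replicates were 79.9% of the bases of either.

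This share was 83.6% in the low part, 75.6% in the middle part and 80.1% in the high part. Among the 27 windows it ran from 33.5% to 99.7%, with a median of 82.3%. The lowest values were 33.5% between 500001 and 550000 and 33.8% between 400001 and 450000, and the highest was in the window from 200001 to 250000. Stretches covered by replicate 1 alone were short, with a median of 175.5 bp and a maximum of 1802 bp. Those covered by replicate 2 alone had a median of 724.5 bp and reached 4769 bp, at the left end of the cluster from 767451. The largest differences in cover were 32.1 percentage points between 500001 and 550000, 31.2 between 1100001 and 1150000 and 29.6 between 1000001 and 1050000, each with replicate 2 higher.

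**Figure D5:**
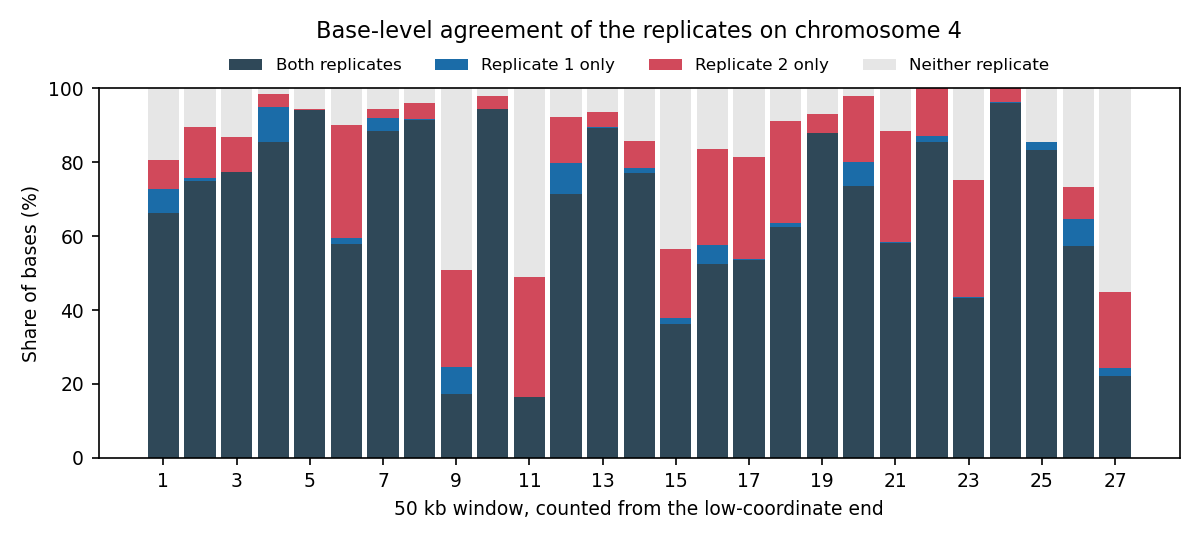
Share of bases in each full 50 kb window of chromosome 4 that lay inside clusters of both replicates, of replicate 1 alone, of replicate 2 alone or of neither. Over the chromosome the shares are 67.1%, 2.55%, 14.4% and 16.0%, and replicate 2 alone holds more than replicate 1 alone in 24 of the 27 windows.

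At a finer scale, 92 of the 270 full windows of 5 kb (34.1%) were wholly covered in both replicates, against 2.15% over all sequences. Only 9 held no cluster base in either replicate (3.33%, against 52.9%). The wholly covered windows were spread evenly, with 32, 30 and 30 in the low, middle and high parts. No window of 5 kb was wholly covered in 1 replicate and empty in the other. None could be, since no stretch covered by 1 replicate alone exceeded 4769 bp.

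Counted as clusters, 126 of the 129 of replicate 1 overlapped a cluster of replicate 2 by at least 1 bp (97.7%), against 51.8% of all its clusters. Of the 135 of replicate 2, 100 overlapped a cluster of replicate 1 (74.1%), against 54.6%. These are counts over 1 pair of lists, in which neighbouring clusters can share a partner, and the differences were not tested. Replicate 2 covered 81.4% of chromosome 4 against 14.7% of all sequences, and replicate 1 covered 69.6% against 15.7%. A wide cluster, or one where the other list covers much, can meet a partner whatever its placement. The higher shares on chromosome 4 can therefore not be told apart from its higher cover. Stricter rules gave lower shares. With at least 50% of both clusters of a pair in the overlap, 50.4% of replicate 1 and 48.1% of replicate 2 were shared, against 34.1% and 41.2% of all clusters. With at least 50% of a cluster's own bases covered, 93.8% and 64.4% were, against 47.7% and 49.1%. Replicate 1 had 68 clusters (52.7%) wholly inside a cluster of replicate 2, and 15 of replicate 2 (11.1%) lay the other way round. Such shares were not computed over all sequences, and replicate 2 covered more of the chromosome, so no meaning is given to the difference. In 44 cases 1 cluster of each list matched only the other. The median width of these clusters was 1936 bp in replicate 1 and 2958 bp in replicate 2, and replicate 2 was wider in 29 pairs. Over the 88 edges of these pairs, the median distance between the replicates was 384.5 bp (quartiles 93 and 958.5 bp), and 53 edges were within 500 bp. Elsewhere 36 clusters of replicate 2 each touched at least 2 clusters of replicate 1, up to 4 for the cluster from 40039 to 54978 (score 1.54).

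The clusters found in 1 replicate alone differed between the lists. The 3 of replicate 1 were narrow and lay from 7549 to 8893, from 38272 to 39900 and from 752542 to 754084. Their scores were 2.99, 2.12 and 0.55, so they included the 2 highest of that list. In the replicate-set list the clusters over them scored 1.37, 1.31 and 0.42. The 35 of replicate 2 had a median width of 1786 bp and a median score of 0.78, with no score above 1.04. Its 100 shared clusters had medians of 5687 bp and 1.11. Of the 35, 22 lay in the middle part, 7 in the low part and 6 in the high part. In all, replicate 2 had 50, 44 and 41 clusters in these parts. The middle part also had the lowest cover in replicate 1 (63.5%), which leaves more room there for clusters without a partner. Within 13 of the 21 gaps of at least 5 kb in replicate 1 lay a whole cluster of replicate 2, 30 clusters in all, and replicate 2 covered 40.3% of the bases of these 21 gaps. The 13 such gaps of replicate 2 held 2 whole clusters of replicate 1, and 5.40% of their bases were covered there. Over bases covered by replicate 2 alone its mean score was 1.01, against 1.42 over bases shared with replicate 1.

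The replicate-set list had wider domains, some of which spanned several clusters of the replicates, and covered part of their gaps. It contained 100% of the bases found in both replicates and 99.3% of those found in either. A further 82.7 kb, 6.84% of its bases, lay outside the clusters of both. Its widest domain ran from 1132562 to 1219830 (87.3 kb, score 1.47) and took in 2 clusters of replicate 1 and 4 of replicate 2. The next ran from 1021734 to 1101804 (80.1 kb, score 1.32), over 7 and 6 clusters, and from 168320 to 245664 (77.3 kb, score 1.46), over 4 and 3. Of its 104 clusters, 61 (58.7%) overlapped clusters of both replicates, against 19.5% of the whole list, and they held 92.8% of its bases. Another 23 (22.1%) were found in replicate 2 alone, against 16.3% of the whole list, and 3 (2.88%) in replicate 1 alone, against 22.7%. The remaining 17 (16.3%, against 41.5% of the whole list) were found in neither. Clusters of at least 1 replicate covered 84.0% of chromosome 4, and each replicate covered far less of all sequences (15.7% and 14.7%). These shares can therefore not be told apart from cover, and chance overlap was not tested. The replicate-set list is also not independent of the 2 replicates.

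Chromosome 4 was set beside the heterochromatic scaffolds 3LHet and 3RHet and the 2 Mb of 2L and of 3L nearest the centromere. Among these parts alone, 3LHet and the proximal 2 Mb of 3L were the most like it in cover. None of the differences was tested. 3LHet was covered to 61.7% in replicate 1 and 70.9% in replicate 2, and the proximal 2 Mb of 3L to 55.8% and 65.1%, below the 69.6% and 81.4% of chromosome 4. The bases of both replicates were 80.0% of those of either on 3LHet and 76.8% in the proximal 2 Mb of 3L, close to the 79.9% of chromosome 4. Median scores were lower on chromosome 4, at 0.90 and 1.03, than on 3LHet, at 1.18 and 1.43, and than in the proximal 2 Mb of 3L, at 1.07 and 1.31. They were 1.14 and 1.37 on 3RHet and 0.996 and 0.895 in the proximal 2 Mb of 2L. Clusters were narrower on chromosome 4, with medians of 2546 bp and 3340 bp, against 3555 bp and 4994 bp on 3LHet and 3486 bp and 5049.5 bp in the proximal 2 Mb of 3L. This did not hold throughout for the other parts, with 2415 bp and 3564 bp on 3RHet and 2914 bp and 2104 bp in the proximal 2 Mb of 2L. Clusters at least 10 kb wide were 20.9% and 23.7% on chromosome 4, 16.0% and 27.1% on 3LHet and 14.8% and 31.5% in the proximal 2 Mb of 3L, so the order differed between replicates. The median gap of chromosome 4 was 1500.5 bp in replicate 1, near the 1458.5 bp of 3LHet and the 1439.5 bp of the proximal 2 Mb of 3L. In replicate 2 it was 945 bp, against 1611 bp and 1864 bp. The longest gaps of chromosome 4 were shorter, at 42.9 kb and 18.956 kb, against 51.7 kb and 47.5 kb on 3LHet and 85.3 kb and 101 kb in the proximal 2 Mb of 3L. Chromosome 4 is also the shorter sequence, at 1352 kb against 2555 kb for 3LHet and 2000 kb for the part of 3L. A longer sequence has more room for a long gap.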

How the data were processed

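The authors used Bowtie 0.12.7 for alignment, per the submitters' processing notes, and FlyBase release 5 coordinates, per the file headers. Not given in the sources used here are the caller, its thresholds, how reads matching several places were treated and how replicates were combined. The deposited score was taken to be on a log2 scale. Raised as a power of 2 and divided by 1 constant per list, it gave a ratio of whole numbers (tolerance 1e-12, denominators up to 3000) for 99.6% or more of the regions of each list, and for under 2% with base e or 10. The files do not state what the ratio is; ChIP over control is presumed. The constants are not known, so score levels are compared only within a list. Sequencing depth is unknown, so intervals that need it were left out.

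Clusters on chromosome 4 were taken from each list by sequence name. The replicate-set list also held 2 regions marked as depletion, neither on chromosome 4, which were left out. Cover is the share of bases that lie inside clusters, in windows of 50 kb counted from base 1. A cluster belongs to the window that holds its midpoint. Named regions were the 5 widest clusters, 5 highest scores and 5 widest gaps of each list, the 5 widest stretches of each state of agreement, and the 3 windows of highest cover, lowest cover and largest difference. From these the text gives those that matter most. The 5 sparse windows, the 3 unshared clusters of replicate 1 and the other single clusters named were chosen after their values were seen. The members and measures were chosen with earlier results of these data known. The interval arithmetic was tested on 20 simulated pairs of lists, with 0 failed checks. Alternatives used a score threshold, joined clusters, a width limit, other overlap rules, other window sizes and ends, and single replicates. The tools were numpy 2.4.6, scipy 1.17.1, pandas 2.3.3 and matplotlib 3.10.9 in Python 3.11.15.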

Additional observations from a re-analysis of the deposited data

How the results depend on the processing

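No paired analysis was possible because cluster lists were analysed for the ChIP samples alone. The mean cover of chromosome 4, 75.5%, lay between 69.6% and 81.4% with either replicate alone, and stayed within the spread between the replicates under each alternative run. The cover of the low part minus that of the high part, 3.83 percentage points, ran from 1.60 to 6.05 with either replicate alone. It was 16.7 with the first and last 5 windows in place of parts of 450 kb and -1.46 without the last full window, which was chosen after seeing the data. The score difference between these parts, 0.045, ran from 0.038 to 0.051 with either replicate alone. It was 0.068 with the first and last 5 windows, 0.070 with the first and last 13 windows and 0.032 with only clusters that reached the median score of their whole list. That score threshold gave a median width of 5018 bp in place of 2943 bp, bases of both replicates at 76.5% of those of either in place of 79.9%, and a score correlation of 0.622 in place of 0.743. Joining clusters across gaps of up to 500 bp gave a median width of 4001.5 bp, a median gap of 1902 bp in place of 1222.75 bp, and 80.3% of the bases of either. With either replicate alone the median width was 2546 to 3340 bp and the median gap 945 to 1500.5 bp. The share of clusters found in the other replicate depended most on the overlap rule. With an overlap of at least 50% of both clusters, it was 50.4% for replicate 1 and 48.1% for replicate 2, against 34.1% and 41.2% over all sequences. When at least 50% of a cluster's own bases had to be covered, it was 64.4% for replicate 2 (49.1% over all sequences). Weighting scores by width gave 1.20 in replicate 1 and 1.35 in replicate 2 in place of the medians of 0.90 and 1.03. The score correlation was 0.650 in windows of 1 kb, 0.652 in windows of 50 kb and 0.758 by Pearson's measure. No cluster on chromosome 4 was under 1000 bp, so the width limit left every result as it was. Depth is unknown, so what it limits could not be judged.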

Other observations

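The 17 replicate-set clusters on chromosome 4 that overlapped no cluster of either replicate were narrow, with a median width of 1131 bp. Their median score was 0.54, below the 0.68 of all replicate-set clusters on chromosome 4 but above the 0.51 of the whole list. Of these 17 clusters, 14 lay in the 5 sparse windows. Those windows were chosen for low cover and hold 51.6% of the bases outside both replicates, where alone such clusters can lie. The highest score of the whole replicate-set list on chromosome 4, 2.11, belonged to one of them, from 9594 to 11594. It lay in the gap of replicate 2 from 4952 to 12626, which also holds the highest-scoring cluster of replicate 1, from 7549 to 8893. The second highest, 1.56, was from 1291298 to 1292298, inside the longest stretch that neither replicate covered.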
